A study of Mus musculus with 9 samples.

Results

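The genes described here encode the subunits of the RNA polymerases of the mouse nucleus, and Polrmt, the polymerase of the mitochondrion. They were taken by name: a probe counted when its accession matched a mouse symbol starting with Polr1, Polr2 or Polr3, or the symbol Polrmt, in RefSeq's table of mouse genes (assembly GRCm38.p6). Of 29 such symbols, 27 had a matched probe, out of 26866 features tested on the arrays. Polr2a and Polr2d were not analysed here. All 37 matched probes were well above background on each of the 9 arrays, none was saturated, and 10 genes had more than 1 probe, of which the brightest was tested.

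The study asked which genes respond to 2 small molecules in J1, a mouse embryonic stem cell line of strain 129S4/SvJae that had been adapted to growth on gelatin. All cells grew with serum replacement and 1000 U/mL of leukaemia inhibitory factor, which keeps mouse stem cells undifferentiated. For 24 h the cultures received DMSO, the solvent control, 3 µM CHIR99021, which inhibits the kinase GSK3 and so stabilises beta-catenin, or 1 mM AICAR, a nucleoside whose phosphorylated form mimics AMP and activates the kinase AMPK. Total RNA of 3 samples per group was labelled with Cy3 and hybridised to 1 Agilent array each. Whether the numbered samples of a group were grown separately is not in the labels, so p-values reflect how these 9 RNA samples vary, and that variation may be purely technical.

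Pol I transcribes the precursor of the large ribosomal RNAs in the nucleolus, Pol II the messenger RNAs, and Pol III the transfer RNAs and other short untranslated RNAs. The enzymes have their own large catalytic subunits and share a set of small ones, and a pair of assembly subunits is common to Pol I and Pol III. Growing cells spend much of their transcription on Pol I and Pol III products, and these enzymes are known targets of nutrient and growth signals. The genes fell into 3 that belong to Pol I, 2 shared by Pol I and Pol III, 5 shared by all nuclear enzymes, 6 of Pol II, 10 of Pol III, and Polrmt.

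Array quality was even by the measures that follow, while the level of the spike-in controls varied between arrays of a group, as given below. Between 62.8% and 67.2% of spots were well above background, arrays of a group correlated at 0.995 to 0.997 across features, and arrays of different groups at 0.973 to 0.983. Every group had its own slide and scan, so slide and treatment cannot be told apart in any comparison. All 8 embryonic stem cell markers were well above background on every array of each group, but most changed in level. With CHIR99021 Esrrb, Zfp42 and Sox2 rose (0.73, 0.32 and 0.26 on the log2 scale), and Utf1 and Tdgf1 fell (-1.22 and -0.60). With AICAR Esrrb, Tdgf1, Sox2 and Nanog rose (0.44, 0.39, 0.36 and 0.29), and Utf1 and Zfp42 fell (-1.16 and -0.31). Pou5f1 and Dppa5a did not reach a limma adjusted p under 0.05 with either. The summed linear signal of the fibroblast markers, in units of the array's 75th percentile, was 2.06 to 2.21 in DMSO, 2.21 to 2.35 with CHIR99021 and 3.25 to 3.92 with AICAR. That sum follows its brighter members, and the list did not move as one: with AICAR Thy1 and Pdgfrb rose (0.91 and 2.32 on the log2 scale), Col1a1, Col1a2 and Dcn fell (-0.51, -1.29 and -2.93), and the median over the 6 tested was -0.35. With CHIR99021 1 of the 6 rose and 2 fell. Lum and Postn were not tested, and Dcn was not well above background on any AICAR array. The same sum was 9.97 to 10.9, 20.1 to 22.8 and 12.8 to 14.8 for the mesoderm markers, 6.08 to 6.21, 3.88 to 4.06 and 5.03 to 5.52 for the neural markers, and 0.742 to 0.809, 0.926 to 1.03 and 0.999 to 1.07 for the primitive endoderm markers, in the order DMSO, CHIR99021, AICAR. All 4 mesoderm markers tested rose with CHIR99021, T by 8.27 on the log2 scale. With AICAR 3 rose and T did not pass that limit (0.17). Of the 5 neural markers tested, Map2 rose with both treatments (1.19 and 1.83), and Pax6 (-4.99 and -3.15), Sox1 and Tubb3 fell with both. Nes fell with CHIR99021 (-1.54) and rose with AICAR (0.195). Mixl1, Hand1 and Neurog2 were not tested. Of the 6 primitive endoderm markers, 4 rose with AICAR while Foxa2 and Gata4 fell (-2.43 and -0.43). With CHIR99021 3 rose while Sox7 fell (-0.36). The part of these shifts in the results below was not tested.

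With AICAR most polymerase genes fell. Called at a limma adjusted p under 0.05 over all features, 20 of the 27 genes were lower than in DMSO, which is 74.1%, where 29.6% of all features were called lower. Polr3gl was the single gene called higher, where 30.9% of all features were. The other 6 genes did not pass the test. The median log2 fold change was -0.30 over the polymerase genes and 0.03 over all features. The falls were modest: 5 genes, Polr3e, Polr3d, Polr2m, Polr2l and Polr3a, were lower by more than 1.5-fold. By the plainer rule that the 3 arrays of each group do not overlap, 21 genes were lower and 2 higher, against 32.8% and 34.3% of all features. In these bulk samples fewer cells of a type and less RNA per cell cannot be told apart, and the levels are relative to each array's own 75th percentile. Under quantile normalization 15 genes were lower and 4 higher, as Polr2c, Polr2e and Polr2g joined Polr3gl among the higher ones, where 26.2% of all features were lower and 31.9% higher. Scaled to the spike-in controls, 5 of the 27 were lower, not far from the 13.1% of all features, and 1 was higher, where 21.5% were. The fold changes of 22 genes were below 0 on that scale, with a median of -0.23 against 0.10 over all features. Quantile normalization also reduced some falls by more than 1.5 times, to -0.20 for Polr1a, -0.14 for Polr1c, -0.26 for Polr2i and -0.20 for Polr2j, which stayed called.

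**Figure D1:**
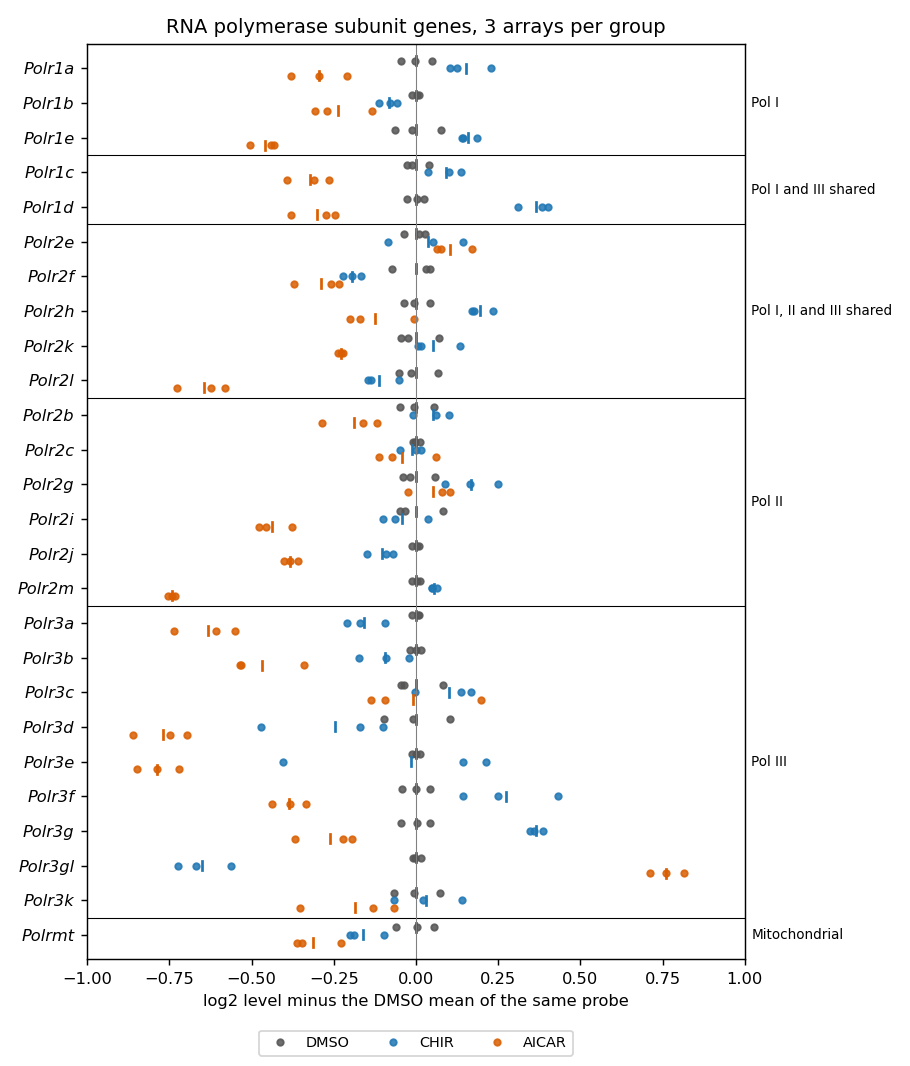
Log2 level of the polymerase genes shown on each of the 9 arrays, minus the mean of its 3 DMSO arrays (horizontal axis), grouped by enzyme. Points are arrays, short vertical lines are group means of n = 3, and the AICAR points lie left of the DMSO points for most of the genes shown while Polr3gl lies to the right.

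CHIR99021 had no such common direction. Of the 27 genes, 6 were called higher (22.2%, where 30.4% of all features were) and 3 lower (11.1%, where 20.5% were), and 18 did not pass the test. The genes called higher were Polr1d, Polr1e, Polr2g, Polr2h, Polr3f and Polr3g, and those called lower were Polr2f, Polr3gl and Polrmt. The median log2 fold change was 0.04, against 0.07 over all features. The arrays did not overlap for 9 genes in each direction, against 37.5% of all features higher and 25.8% lower. The count of higher genes dropped to 3 without DMSO replicate 1 or 3 or CHIR replicate 2 or 3, and the count of lower genes to 1 without DMSO replicate 1 or 2 or CHIR replicate 2. Quantile normalization gave 3 higher and 7 lower genes, where 25.7% and 23.6% of all features were, so the lower count was near the background. Scaling to the spike-in controls left Polr3gl as the single call, lower, where 8.59% of all features were higher and 13.3% lower. That last scaling moved the median of all features from 0.07 to -0.05.

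Set directly against each other, the treatments differed at 20 genes. With CHIR99021 19 genes were higher than with AICAR (70.4%, where 36.2% of all features were) and 1 was lower (3.7%, where 24.6% were). The median difference was 0.37 on the log2 scale, and 0.10 over all features. No overlap between the arrays was found for 22 genes with CHIR99021 higher, against 38.8% of all features, and for Polr3gl with CHIR99021 lower, against 26.6%. Quantile normalization gave 13 higher and 4 lower, where 29.1% and 28.2% of all features were. Spike-in scaling gave 3 of the 27 higher, a share near that of all features (2871 of 26866), and 1 lower, where 22.7% were. The excess of higher calls was thus not seen on that scale. The differences of 19 genes were above 0 there and of 8 below, with a median of 0.19 against -0.08 over all features. Spike-in scaling moves all genes of an array by 1 amount. The spike-in level less the 75th percentile was 1.92, 2.32 and 2.32 in DMSO on the log2 scale. It was 2.35, 2.36 and 2.20 with CHIR99021, and 2.06, 2.29 and 2.01 with AICAR. That spread enters the test of every gene, so a call lost on that scale does not show that the difference was lost. Polr1b, at 0.15 ± 0.05 (adjusted p = 0.0377), lost its call in 14 of 18 alternatives. Both comparisons with DMSO use the same 3 control arrays, so their values are given side by side below and not correlated.

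A pair of Pol III paralogs moved in opposite directions, each the other way round under the other treatment. Polr3g and Polr3gl encode alternative forms of 1 Pol III subunit, which sits with the products of Polr3c and Polr3f in a module needed for initiation. In human cells POLR3G is known as the form of pluripotent and tumour cells, and POLR3GL as the form found widely in differentiated tissue. The promoters of this pair are shown because of that pattern. The sequences are RefSeq's, build GRCm38.p6, from 250 bases before to 50 bases after the gene's start, both on the minus strand. Capitals mark an ETS core, CTTCCGG as printed on this strand, in Polr3g at chr13:81710964-81711263. In Polr3gl, at chr3:96594132-96594431, they mark an E-box, CACGTG.
Polr3g: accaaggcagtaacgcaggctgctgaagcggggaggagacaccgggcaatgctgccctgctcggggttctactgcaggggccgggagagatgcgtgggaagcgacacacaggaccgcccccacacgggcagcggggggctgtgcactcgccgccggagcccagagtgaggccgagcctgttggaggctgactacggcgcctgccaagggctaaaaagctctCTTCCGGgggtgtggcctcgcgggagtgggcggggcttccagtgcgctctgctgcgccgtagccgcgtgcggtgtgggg
Polr3gl: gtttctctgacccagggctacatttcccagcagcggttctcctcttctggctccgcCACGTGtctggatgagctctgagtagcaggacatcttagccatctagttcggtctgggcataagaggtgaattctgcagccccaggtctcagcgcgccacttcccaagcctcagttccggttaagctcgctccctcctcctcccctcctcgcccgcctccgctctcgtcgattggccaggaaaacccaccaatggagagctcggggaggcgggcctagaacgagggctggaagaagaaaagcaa

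The log2 level of Polr3g, where 0 is the array's 75th percentile, was 3.14, 3.05 and 3.09 in DMSO, 3.45, 3.48 and 3.44 with CHIR99021, and 2.90, 2.72 and 2.87 with AICAR. All CHIR99021 arrays lay above all DMSO arrays and all AICAR arrays below them. The log2 fold change of Polr3g was 0.36 ± 0.06 (SE, n = 3 arrays per group, limma adjusted p = 0.00113) with CHIR99021 and -0.26 ± 0.06 (adjusted p = 0.00461) with AICAR. The AICAR fall was -0.13 with an adjusted p of 0.0726 under quantile normalization, and neither call held with spike-in scaling.

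Polr3gl ran the other way. Its log2 level was 2.38, 2.35 and 2.36 in DMSO, 1.69, 1.64 and 1.80 with CHIR99021, and 3.12, 3.18 and 3.07 with AICAR. The 3 groups were fully apart, CHIR99021 lowest and AICAR highest. The log2 fold change was -0.65 ± 0.05 (adjusted p = 4.22e-05) with CHIR99021, a level 1.57-fold lower, and 0.76 ± 0.05 (adjusted p = 1.11e-05) with AICAR, a level 1.70-fold higher. Between the treatments Polr3gl differed 2.66-fold (adjusted p = 4.73e-07). A dimmer probe of Polr3gl had the same directions, at -0.80 ± 0.15 with CHIR99021 and 0.99 ± 0.15 with AICAR. These 3 calls of Polr3gl held under all 18 alternatives of the processing, which no other polymerase gene did in every comparison.

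Because both probes of the pair were read on the same array, the log2 difference Polr3g minus Polr3gl was followed from array to array. Less its DMSO mean, it was 0.03, -0.04 and 0.01 on the DMSO arrays, 1.03, 1.11 and 0.91 with CHIR99021, and -0.95, -1.18 and -0.93 with AICAR. The groups did not overlap. Polr3g thus gained 2.02-fold over Polr3gl with CHIR99021 and lost 2.03-fold with AICAR. These values are a description of a pair singled out for its opposite movement, and no test of them is given.

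**Figure D2:**
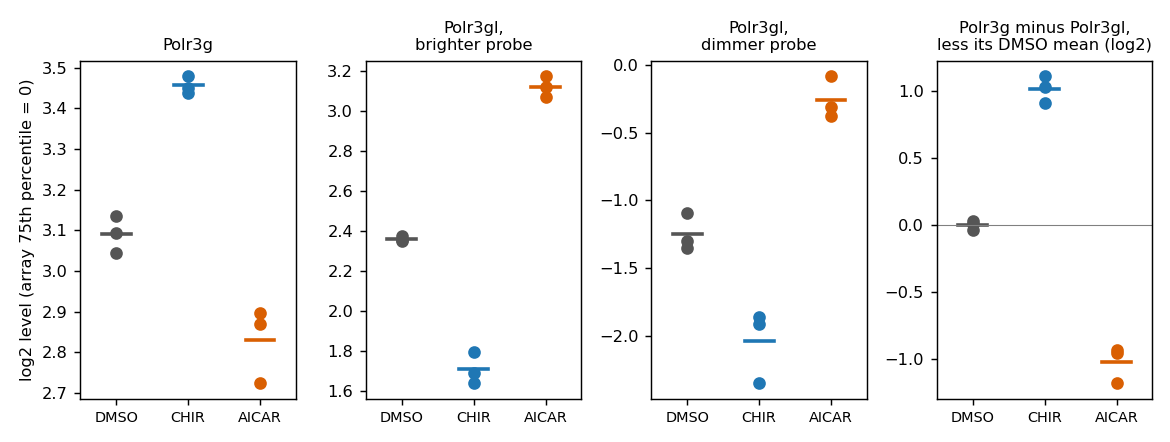
Log2 level on each array of the Polr3g probe and of the brighter and dimmer Polr3gl probes (first 3 panels; 0 is the array's 75th percentile, and each panel has its own axis range), and the within-array difference Polr3g minus Polr3gl, less its DMSO mean (right). Points are arrays and bars are means of n = 3; the difference sits at 0.91 to 1.11 with CHIR99021 and at -1.18 to -0.93 with AICAR.

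Of the polymerase genes, 22 had 24 promoter entries in RefSeq's table of 32851. Those with none included Polr2g, Polr2k, Polr3a and Polr3d. The ETS core CCGGAAG, searched on both strands, lay in 8 of the 24 entries (33.3%) and in 8.86% of all entries. In Polr3g it began 29 bases before the start, and the other genes that held it were Polr1c, Polr1e, Polr2c, Polr2f, Polr2j, Polr3b and Polrmt. The E-box CACGTG lay in 4 entries (16.7%, against 7.15% of all), of Polr2h, Polr3c, Polr3e and Polr3gl, and began 194 bases before the start of Polr3gl. The TCF/LEF core CTTTGAT, the motif of the factors that beta-catenin joins, lay in 2 entries (8.33%, against 3.73%), of Polr2m and Polrmt. TATAAA lay in 2 entries (8.33%, against 13.6%), of Polr2c and Polrmt. None of these motifs contains another. The matches describe these windows and are no evidence of binding.

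All 3 genes of Pol I itself among the 27 fell with AICAR. Of its subunits under other symbols, given below, Cd3eap fell and Twistnb and Znrd1 did not pass the test. Polr1a encodes the largest subunit, which with Polr1b, the second largest, forms the active centre. Polr1a had log2 levels of 2.84, 2.79 and 2.74 in DMSO, 2.91, 3.02 and 2.89 with CHIR99021, and 2.58, 2.49 and 2.41 with AICAR. The AICAR arrays were all below DMSO (log2 fold change -0.30 ± 0.06, limma adjusted p = 0.00353), and the CHIR99021 arrays all above it without passing the test (0.15 ± 0.06, adjusted p = 0.0704). Polr1b had log2 levels of 1.85, 1.83 and 1.85, then 1.77, 1.73 and 1.79, then 1.71, 1.54 and 1.57, in the same order of groups. It was lowest with AICAR (-0.24 ± 0.05, adjusted p = 0.00580), and its CHIR99021 arrays were also below DMSO, at -0.08 ± 0.05 (adjusted p = 0.236).

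Polr1e encodes a Pol I subunit that pairs with the product of Cd3eap and helps the enzyme onto its promoter. Log2 levels of Polr1e were 2.21, 2.16 and 2.30 in DMSO, 2.36, 2.41 and 2.36 with CHIR99021, and 1.79, 1.72 and 1.78 with AICAR. The groups did not overlap. The AICAR fall was -0.46 ± 0.05 (adjusted p = 0.000122). The CHIR99021 rise of 0.16 ± 0.05 (adjusted p = 0.0335) lost its call without DMSO replicate 1 or 2 or any 1 CHIR replicate, where it lay at 0.13 to 0.16 with adjusted p of 0.0649 to 0.115. The dimmer Polr1e probe gave -0.07 ± 0.06 with CHIR99021, and the mean of both probes 0.043 (adjusted p = 0.532), so the rise rested on the brighter probe.

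Polr1c and Polr1d encode the pair of assembly subunits of Pol I and Pol III. Polr1c had log2 levels of 5.33, 5.26 and 5.28 in DMSO, 5.32, 5.39 and 5.42 with CHIR99021, and 5.02, 4.98 and 4.90 with AICAR. It fell with AICAR by 0.32 on the log2 scale (-0.32 ± 0.05, adjusted p = 0.000965), and the CHIR99021 arrays overlapped DMSO. The fall of Polr1c was -0.14 under quantile normalization (adjusted p = 0.0465) and -0.13 in the series matrix, where the call was lost (adjusted p = 0.0506). Polr1d had 4.51, 4.54 and 4.57, then 4.94, 4.92 and 4.85, then 4.27, 4.29 and 4.16. Its 3 groups were apart, with a rise of 0.36 ± 0.05 (adjusted p = 0.000719) with CHIR99021 and a fall of -0.30 ± 0.05 (adjusted p = 0.00144) with AICAR. Another probe of Polr1d, designed on a different transcript accession, rose with both, by 0.33 ± 0.08 and 0.29 ± 0.08, so the direction of Polr1d with AICAR depended on the probe. Under quantile normalization the fall of the tested probe was -0.10 (adjusted p = 0.130).

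Of the 5 subunits common to all nuclear enzymes, 3 fell with AICAR. Polr2l, a small zinc-binding subunit, had log2 levels of 6.55, 6.59 and 6.67 in DMSO, 6.46, 6.55 and 6.47 with CHIR99021, and 6.02, 5.98 and 5.88 with AICAR. The AICAR arrays were far below the rest (-0.64 ± 0.06, adjusted p = 3.94e-05), a call that held under all 18 alternatives. A dimmer probe of Polr2l gave -0.61 ± 0.09 with AICAR, and with CHIR99021 it fell by 0.57 (-0.57 ± 0.09), where the tested probe gave -0.11 ± 0.06 (adjusted p = 0.146). Polr2f, a subunit at the enzyme's clamp, had log2 levels of 4.86, 4.88 and 4.76, then 4.67, 4.61 and 4.64, then 4.60, 4.58 and 4.46. Both treatments lay below DMSO, at -0.19 ± 0.06 (adjusted p = 0.0203) with CHIR99021 and -0.29 ± 0.06 (adjusted p = 0.00253) with AICAR. The CHIR99021 call of Polr2f was lost without DMSO replicate 1 or 2 or CHIR replicate 2 or 3 (adjusted p 0.0514 to 0.0706), and the AICAR call under quantile normalization (-0.09).

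Polr2k, the other zinc-binding subunit, had log2 levels of 5.10, 5.08 and 5.19 in DMSO, 5.13, 5.26 and 5.14 with CHIR99021, and 4.89, 4.90 and 4.89 with AICAR. The AICAR arrays were the lowest (-0.23 ± 0.05, adjusted p = 0.00681), and the value was -0.05 under quantile normalization, which ended the call. Polr2h, a subunit of the enzyme's body, had 3.47, 3.52 and 3.44, then 3.64, 3.65 and 3.71, then 3.30, 3.27 and 3.47. CHIR99021 arrays were above DMSO (0.19 ± 0.06, adjusted p = 0.0297), while 1 AICAR array overlapped DMSO (-0.13 ± 0.06, adjusted p = 0.109). The rise of Polr2h was lost without DMSO replicate 1 or 3 or any 1 CHIR replicate (adjusted p 0.0586 to 0.0917), and without AICAR replicate 3 its AICAR value became a call at -0.19 (adjusted p = 0.0165). Polr2e, which contacts DNA ahead of the active centre, gave 0.04 ± 0.07 and 0.10 ± 0.07 and passed neither test, but under quantile normalization it was called higher with AICAR, at 0.25.

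Pol II genes split into those that fell with AICAR and those near DMSO. Polr2m encodes a protein that rides on Pol II and makes it depend on the Mediator complex. Log2 levels of Polr2m were 6.07, 6.05 and 6.07 in DMSO, 6.11, 6.13 and 6.11 with CHIR99021, and 5.33, 5.31 and 5.32 with AICAR. The SD between arrays of a group was 0.0087 to 0.012, and AICAR lay far below (-0.74 ± 0.04, adjusted p = 1.96e-06), a call that held under all 18 alternatives. With CHIR99021 the value was 0.05 ± 0.04 (adjusted p = 0.272). Polr2i, a subunit that bears on start site choice and on fidelity, had 5.79, 5.81 and 5.92, then 5.74, 5.88 and 5.78, then 5.46, 5.36 and 5.39. It fell with AICAR (-0.44 ± 0.06, adjusted p = 0.000382), and a dimmer probe fell by 0.74 (-0.74 ± 0.05).

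Polr2j and Polr2c encode the Pol II counterparts of the assembly pair. Polr2j had log2 levels of 5.21, 5.20 and 5.19 in DMSO, 5.11, 5.13 and 5.05 with CHIR99021, and 4.84, 4.81 and 4.80 with AICAR. Every CHIR99021 array was below DMSO without passing the test (-0.10 ± 0.04, adjusted p = 0.0704), and the AICAR arrays were lower still (-0.38 ± 0.04, adjusted p = 0.000113). Polr2c gave -0.01 ± 0.05 and -0.04 ± 0.05, and the groups overlapped. Its direction was not settled: quantile normalization gave 0.15 with AICAR (adjusted p = 0.0380), and its dimmer probe rose with CHIR99021 (0.28 ± 0.05).

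Polr2b, the second largest Pol II subunit, had log2 levels of 4.33, 4.22 and 4.27 in DMSO, 4.37, 4.33 and 4.27 with CHIR99021, and 4.11, 3.99 and 4.15 with AICAR. AICAR arrays were below DMSO by a small margin (-0.19 ± 0.06, adjusted p = 0.0263). Without DMSO replicate 1 or 3 or AICAR replicate 2 the call was lost, at -0.16, -0.19 and -0.14 (adjusted p 0.0622 to 0.0864), and under quantile normalization the fold change of Polr2b was 0.00 to 2 decimals. Polr2g, part of the stalk that receives the new RNA, rose with CHIR99021 by 0.17 ± 0.06 at an adjusted p of 0.0499, and this call was lost in 15 of 18 alternatives, among them leaving out any 1 DMSO replicate, CHIR replicate 2 or 3, or AICAR replicate 1 or 3 (adjusted p 0.0533 to 0.152). With AICAR it stood at 0.05 ± 0.06 (adjusted p = 0.478).

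Pol III held the widest range of AICAR values, from -0.79 to 0.76 on the log2 scale, with 7 of its 10 genes called lower and Polr3gl higher. Polr3a encodes the largest subunit. Its log2 levels were 1.03, 1.00 and 1.02 in DMSO, 0.81, 0.92 and 0.85 with CHIR99021, and 0.47, 0.41 and 0.28 with AICAR. The AICAR fall was -0.63 ± 0.06 (adjusted p = 4.76e-05) and held under all 18 alternatives. CHIR99021 arrays were also below DMSO, at -0.16 ± 0.06 (adjusted p = 0.0549). This became a call in 6 of 18 alternatives. Among them were quantile normalization (-0.22, adjusted p = 0.0152), the series matrix (-0.22, adjusted p = 0.0148), and leaving out AICAR replicate 1 or 3 (adjusted p = 0.0409 and 0.0271). Polr3b, the second largest, gave -0.47 ± 0.07 with AICAR (adjusted p = 0.000502) and -0.09 ± 0.07 with CHIR99021.

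Polr3d and Polr3e encode a pair of subunits that act in initiation and termination. Polr3d had log2 levels of 1.33, 1.22 and 1.13 in DMSO, 1.06, 0.76 and 1.13 with CHIR99021, and 0.53, 0.48 and 0.37 with AICAR. AICAR arrays were far below DMSO (-0.77 ± 0.10, adjusted p = 0.000375), a call that held under all 18 alternatives. With CHIR99021 Polr3d gave -0.25 ± 0.10 (adjusted p = 0.0817), and -0.32 without CHIR replicate 3 (adjusted p = 0.0472). It was also called lower with quantile normalization (-0.29, adjusted p = 0.0439) and in the series matrix (-0.30, adjusted p = 0.0400). Polr3e had 2.50, 2.48 and 2.47, then 2.08, 2.70 and 2.63, then 1.63, 1.69 and 1.76. Among the CHIR99021 arrays 1 lay below DMSO and the others above it. The change was -0.02 ± 0.15 over all arrays and 0.18 (adjusted p = 0.0454) without CHIR replicate 1. The AICAR fall of the tested probe was -0.79 ± 0.15 (adjusted p = 0.00206), but the dimmer Polr3e probe rose by 0.69 ± 0.12, and the mean of both gave -0.05.

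Other Pol III genes were those of the initiation module and the cleavage subunit. Polr3f, in the module with Polr3g or Polr3gl, rose by 0.28 ± 0.08 with CHIR99021 (adjusted p = 0.0172) and fell with AICAR (-0.39 ± 0.08, adjusted p = 0.00276). The rise was lost without DMSO replicate 3 (0.25, adjusted p = 0.0574) and with the mean of both Polr3f probes (0.13). Polr3c, the third member of the module, passed neither test, at 0.10 ± 0.10 and -0.01 ± 0.10. Polr3k, which trims RNA at the active centre, passed neither test, at 0.03 ± 0.09 and -0.18 ± 0.09.

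Polrmt is a single-subunit enzyme related to those of phages. Its log2 levels were 2.13, 2.01 and 2.07 in DMSO, 1.88, 1.87 and 1.97 with CHIR99021, and 1.84, 1.72 and 1.71 with AICAR. Both treatments lay below DMSO, AICAR by more (-0.31 ± 0.06, adjusted p = 0.00214). The CHIR99021 value of -0.16 ± 0.06 had an adjusted p of 0.0488, and it was lost in 11 of 18 alternatives, among them leaving out any 1 DMSO replicate, CHIR replicate 1 or 2, or AICAR replicate 2 or 3 (adjusted p 0.0524 to 0.145).

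The enzymes were then set side by side by the median over their genes. With AICAR the median log2 fold change was -0.30 for Pol I, -0.31 for the Pol I and III pair, -0.23 for the subunits of all enzymes, -0.29 for Pol II and -0.36 for Pol III. On each AICAR array all 5 medians were below 0, and Pol III lay between -0.38 and -0.35. Under quantile normalization the medians were -0.20, -0.12, -0.05, -0.10 and -0.33 in the same order. With CHIR99021 they were 0.15, 0.23, 0.04, 0.02 and 0.01, and the Pol III median was 0.11 without CHIR replicate 1. On the CHIR99021 arrays the Pol I median lay between 0.10 and 0.19, above all DMSO arrays. This median rests on 3 genes: averaging probes brought it to 0.043 and spike-in scaling to 0.038, and it was 0.03 over 6 genes once Cd3eap, Twistnb and Znrd1 were added, a count made after seeing the data. With CHIR99021 the medians of Pol II and of the subunits of all enzymes overlapped DMSO. The Pol I median with AICAR was -0.27 over the same 6 genes. No test was run between enzymes, because genes are not replicates.

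**Figure D3:**
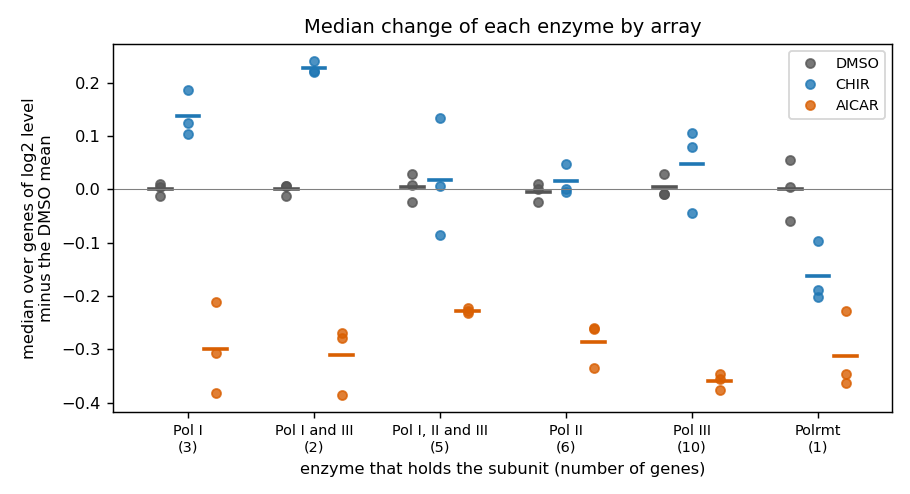
Median over the genes of each enzyme of the log2 level minus the gene's DMSO mean, on each array (vertical axis), with the number of genes in brackets below. Points are arrays and bars are means of n = 3; the AICAR points of every enzyme lie below 0, while the CHIR99021 points lie above DMSO for the 3 genes of Pol I and for the pair of Pol I and III.

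For 10 genes a second, dimmer probe served as a check. With AICAR 8 of the 10 pairs had the same call, and Polr1d and Polr3e were called in opposite directions. With CHIR99021 5 pairs had the same call, and in the others a single probe was called. Between the treatments 6 pairs had the same call and Polr3e opposite ones. Both probes of Polr1e, Polr2i, Polr2l and Polr3f fell with AICAR. Both Polr2e probes and both Polr2c probes missed the threshold there.

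**Figure D4:**
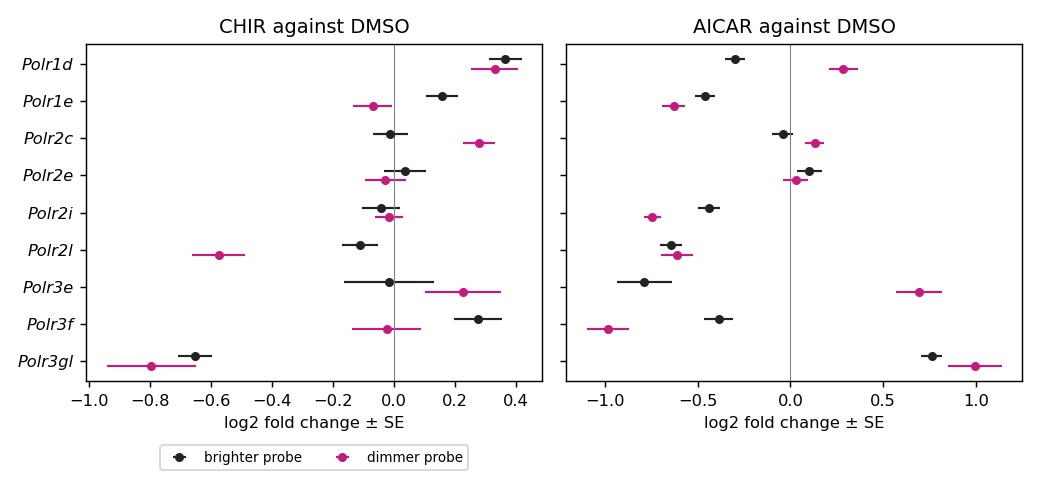
Log2 fold change ± SE (n = 3 arrays per group) of the brighter, tested probe and of the dimmer probe for genes with a pair of probes, CHIR99021 against DMSO on the left and AICAR on the right, with different axis ranges. Polr3gl keeps its direction with both probes, and the Polr1d and Polr3e probes lie on opposite sides of 0 with AICAR.

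Some polymerase subunits carry other symbols in the table, and 4 were tested. Cd3eap, the partner of Polr1e, had log2 levels of 2.45, 2.42 and 2.40 in DMSO, 2.84, 2.29 and 2.79 with CHIR99021, and 1.38, 1.72 and 1.30 with AICAR. It was lower with AICAR (-0.96 ± 0.16, limma adjusted p = 0.00117), and its CHIR99021 arrays lay on both sides of DMSO. Crcp, a Pol III subunit, rose with CHIR99021 (0.21 ± 0.05) and fell with AICAR (-0.39 ± 0.05). Twistnb and Znrd1, both of Pol I, passed neither test, at -0.24 ± 0.15 and -0.12 ± 0.08 with CHIR99021 and -0.22 ± 0.15 and -0.19 ± 0.08 with AICAR.

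The factors that work with each enzyme were counted from fixed lists. Of all features, 29.6% were called lower and 30.9% higher with AICAR, and 20.5% lower and 30.4% higher with CHIR99021. The values of these factors are from the brightest probe in the reported setting. No alternative setting or second probe is given for them. Of 7 Pol I initiation and termination factors listed, 6 were tested, all of them initiation factors. Of the 6, 5 fell with AICAR, and with CHIR99021 4 rose and 1 fell. Taf1a, Taf1c and Taf1d, of the promoter selectivity factor, gave -0.76 ± 0.08, -0.64 ± 0.10 and -0.69 ± 0.05 with AICAR. With CHIR99021 Taf1a rose by 0.45 ± 0.08, Taf1d rose by 0.35 ± 0.05 and Taf1b fell (-0.30 ± 0.07). Rrn3, which makes Pol I competent to start, rose by 0.27 ± 0.06 with CHIR99021 and fell with AICAR (-0.41 ± 0.06). Ubtf, which opens ribosomal DNA, rose by 0.26 ± 0.06 with CHIR99021 and gave 0.03 ± 0.06 with AICAR (adjusted p = 0.683).

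Of 16 Pol III initiation factors and the repressor Maf1 counted with them, 10 fell and 1 rose with AICAR. With CHIR99021 2 rose and 2 fell. The shares of all features were 29.6% lower and 30.9% higher with AICAR, and 20.5% lower and 30.4% higher with CHIR99021. Gtf3c2 and Gtf3c3, of the factor that binds promoters inside the gene, gave -0.50 ± 0.05 and -0.47 ± 0.04 with AICAR, and Snapc4, of the small nuclear RNA activating complex, -0.47 ± 0.04. With CHIR99021 Snapc1 rose by 0.33 ± 0.05, and Gtf3c3 and Gtf3c5 fell slightly (-0.19 ± 0.04 and -0.18 ± 0.05). Brf1, which brings Pol III to transfer RNA genes, gave 0.05 ± 0.04 with CHIR99021 and fell with AICAR (-0.29 ± 0.04). Maf1, the repressor of Pol III, gave -0.15 ± 0.06 (adjusted p = 0.0597) and fell with AICAR (-0.19 ± 0.06, adjusted p = 0.0225).

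Of 18 general factors of Pol II, 11 fell and 2 rose with AICAR, and 3 rose and 2 fell with CHIR99021. Among all features 29.6% fell and 30.9% rose with AICAR, and 30.4% rose and 20.5% fell with CHIR99021. The larger AICAR falls included Cdk7, the kinase of the factor that opens promoters, at -0.87 ± 0.10, and Gtf2h2 and Gtf2h4 of the same factor, at -0.82 ± 0.07 and -0.42 ± 0.05. Gtf2h1, another part of it, rose by 0.50 ± 0.07 with CHIR99021, Gtf2h5 rose by 0.27 ± 0.06, and Gtf2h4 fell (-0.30 ± 0.05). Tbp, which all nuclear polymerases use, gave 0.04 ± 0.05 and -0.05 ± 0.05 and passed neither test. Of 13 pausing and elongation factors, 7 fell with AICAR, and 2 rose and 4 fell with CHIR99021. Supt6, a histone chaperone that travels with Pol II, fell with both (-0.52 ± 0.09 and -0.95 ± 0.09). Ctdp1, a phosphatase of the Pol II tail, and Ccnt2, a cyclin of the elongation kinase, gave -0.61 ± 0.08 and -0.52 ± 0.15 with AICAR. With CHIR99021 Ell2, an elongation factor, fell (-0.44 ± 0.13) and Nelfcd, of the pausing complex, rose by 0.36 ± 0.04.

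Of 8 mitochondrial transcription factors, 4 fell and 1 rose with AICAR, and 3 rose with CHIR99021. Among all features 29.6% fell and 30.9% rose with AICAR, and 30.4% rose with CHIR99021. Mterf4, Tefm, an elongation factor, and Tfb2m, the partner of Polrmt at promoters, gave -0.56 ± 0.10, -0.50 ± 0.06 and -0.46 ± 0.06 with AICAR. With CHIR99021 Mterf3 rose by 0.42 ± 0.10, Tfb2m by 0.33 ± 0.06 and Mterf2 by 0.27 ± 0.06. Tfam, which packs mitochondrial DNA, gave 0.07 ± 0.07 and fell with AICAR (-0.34 ± 0.06). Of 6 assembly factors, 2 fell and 2 rose with AICAR, and 2 rose with CHIR99021. Each of these counts of assembly factors was near the share of all features. No gene of either list was called lower with CHIR99021, where 20.5% of all features were. Gpn1 and Gpn2, GTPases that help Pol II into the nucleus, fell with AICAR (-0.67 ± 0.06 and -0.40 ± 0.05), and Gpn3 rose with both treatments (0.21 ± 0.06 each). Rpap2, a Pol II phosphatase, rose by 0.20 ± 0.05 with CHIR99021.

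**Figure D5:**
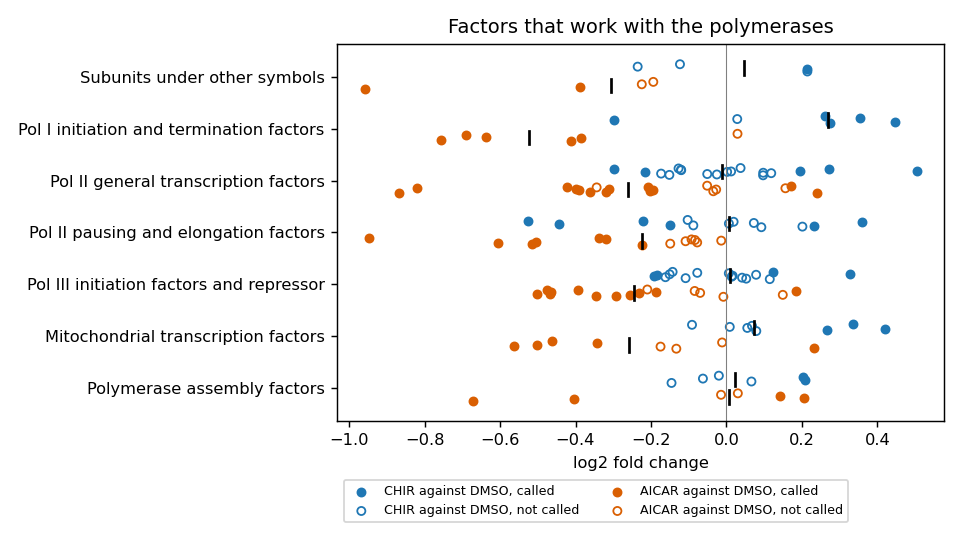
Log2 fold change of each tested gene of the lists of other subunits, initiation, elongation, mitochondrial and assembly factors (horizontal axis), for CHIR99021 and AICAR against DMSO. Filled points passed the limma test, open points did not, and black bars are medians; the AICAR median is below 0 for every list except the assembly factors, where it is 0.01.

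Myc and Mycn encode factors known to raise polymerase and ribosome genes. Myc gave -0.59 ± 0.08 with CHIR99021 and -3.72 ± 0.08 with AICAR, and Mycn -1.002 ± 0.072 and -1.06 ± 0.07, all called. Log2 levels of Mycn were 4.03, 3.98 and 4.12 in DMSO, 2.99, 2.98 and 3.14 with CHIR99021, and 3.06, 3.00 and 2.87 with AICAR. Between the treatments Mycn differed by 0.06 ± 0.07 (adjusted p = 0.490). Whether either factor had a part in the polymerase values was not tested.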

How the data were processed

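Total RNA of 9 samples in 3 groups of 3 was measured on 1-colour Agilent arrays. The deposited scanner files hold the intensity of each spot on a linear scale, made with Feature Extraction 10.7.3.1 per the file headers (version 10.7 per the submitters' processing notes). Log2 values fill the deposited series matrix, with a median of 5.18 and a 75th percentile of 8.90 on every array, that followed the log2 processed signal at correlations of 0.99962 to 0.99999. No source used here states how the authors centred them, and they were used as an alternative.

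From the scanner files, outlier spots (136 to 192 per array) were left out, and the log2 processed signal minus the array's 75th percentile over 59305 spots was averaged per probe. That percentile was 567 to 617. Probes well above background on at least 3 of 9 arrays were kept, 37742 of 55681. RefSeq accessions named 27235 probes, and 28446 kept the file's name. The brightest probe per gene gave 26866 features. All arrays were fitted together with limma 3.58.1 in R 4.3.3 and its package data.table, version 1.17.8, with Benjamini-Hochberg adjustment over all features. Errors of fold changes are standard errors of this fit. The steps were tested on simulated data.

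Alternatives were normexp with an offset of 50, quantile normalization, the series matrix, scaling to 10 spike-in probes of 35 spots, other filters, the mean of a gene's probes, only the groups compared, a replicate block, and leaving out each array. The files give no mean signal, so normexp used the median signal. The values of 1 gene of the set are not reported here, though the counts and medians include it. The genes and lists were chosen with earlier results of these data known. Per-array values are given for the 4 genes of each enzyme with the largest change from DMSO, and for Polr3g, Polr3gl and Polrmt; from each list up to 3 called genes with the largest change per comparison are named, plus 8 genes whatever their result. No difference in expression between genes was read from the levels of different probes. Probe levels did enter the choice of the brightest probe and the summed marker signals. The difference Polr3g minus Polr3gl was read less its DMSO mean. The number of arrays limits the precision, and probes of near-identical transcripts may share signal.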

Additional observations from a re-analysis of the deposited data

How the results depend on the processing

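Under leave-one-out 19 to 21 polymerase genes were lower with AICAR than in DMSO and 1 higher, and between the treatments 18 to 21 were higher and 1 lower with CHIR99021. Leaving out arrays gave 3 to 6 higher and 1 to 4 lower genes with CHIR99021 against DMSO. The higher count with CHIR99021 was 3 with normexp, quantile normalization, the series matrix and the replicate block, and 0 with spike-in scaling (also 0 at an unadjusted limma p under 0.05), and the lower count 7, 8 and 1 with quantile normalization, the matrix and spike-in scaling, and 9 by arrays that do not overlap, a rule chosen after seeing the data. With AICAR the higher count was 4 with quantile normalization and the matrix and 2 by arrays that do not overlap, and the lower count 5 with spike-in scaling. Between the treatments the higher count was 3 with spike-in scaling and the lower count 4 with quantile normalization and the matrix. The shared replicate numbers did not pair the arrays, whose deviations correlated at -0.06 to 0.09 in 9 pairs, and the block changed no other count by over 1.5 times.

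Medians with CHIR99021 in the order normexp, quantile, matrix, spike-in were 0.11, 0.097, 0.091 and 0.038 for Pol I, and 0.043 when a gene's probes were averaged. For Pol II quantile, matrix, spike-in and mean of probes gave -0.022, -0.026, -0.095 and 0.052, and for Pol III spike-in gave -0.11. With AICAR Pol I gave -0.19, -0.20, -0.19 and -0.23, Pol II -0.10, -0.10 and -0.21 with quantile, matrix and spike-in, and Pol III -0.33, -0.33, -0.34 and -0.29. Leave-one-out gave 0.11 to 0.16, 0.0048 to 0.026 and -0.040 to 0.11 with CHIR99021 and -0.34 to -0.25, -0.30 to -0.26 and -0.36 to -0.35 with AICAR for Pol I, II and III. The change of Polr3g minus Polr3gl kept its direction, at 0.97 to 1.07 and -1.07 to -0.94 under leave-one-out, and 0.96 to 1.09 and -1.14 to -1.002 under 4 other settings.

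Among gene results called in the reported setting or in the alternative, directions turned for Polr2c (0.15 and 0.14 with AICAR, and -0.19 and -0.19 between the treatments, with quantile and matrix; 0.13 with CHIR99021 as the mean of probes), Polr2f (-0.15 and -0.15 between the treatments with quantile and matrix), Polr1b (-0.031 there with spike-in) and Polr3e with CHIR99021 (-0.13 to 0.18 under leave-one-out, the highest without CHIR replicate 1). Counting values not called in either, signs turned under at least 1 alternative for 4 genes with AICAR (Polr2c, Polr2g, Polr2h and Polr3c), 10 with CHIR99021 and 6 between the treatments, and spike-in scaling cut the values above 0 with CHIR99021 from 15 to 8. Spike-in scaling ended the calls of 38 gene results that kept their direction, and that of Polr1b between the treatments. The 81 gene results include those not called in the reported setting. Higher and lower calls went from 6 and 3 to 0 and 1 with CHIR99021, and from 1 and 20 to 1 and 5 with AICAR. Between the treatments they went from 19 and 1 to 3 and 1. Spike-in scaling moved the share of higher among all called features from 59.7% to 39.2% with CHIR99021 and from 51.1% to 62% with AICAR. Between the treatments that share moved from 59.5% to 32%, and the median of all features from 0.10 to -0.08. These shifts come with moving each array by its spike-in level, which also differed between arrays of a group and so entered each gene's spread. Why the spike-in levels differed was not tested.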

Other observations

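The genes beside the paralogs were looked up after the paralogs' values were seen, by gene order in the RefSeq table of GRCm38.p6. Txnip, which binds thioredoxin and curbs glucose uptake, lies before Polr3gl in coordinate order, and it fell with CHIR99021 (log2 fold change -1.21 ± 0.06, limma adjusted p = 2.45e-06) and rose by 2.12 ± 0.06 with AICAR (adjusted p = 1.77e-07), the directions of Polr3gl. Ankrd34a, on the other side of Polr3gl, fell with both, at -2.07 ± 0.08 and -0.31 ± 0.08. Beside Polr3g, Lysmd3 rose by 0.16 ± 0.05 with CHIR99021 and fell with AICAR (-0.16 ± 0.05, adjusted p = 0.0198), the directions of Polr3g. Mblac2, on its other side, gave 0.06 ± 0.08 (adjusted p = 0.551) with CHIR99021 and rose by 0.91 ± 0.08 with AICAR. Each paralog thus had 1 neighbour that moved with it under both treatments and 1 that did not, and whether position bears on these values was not tested.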
